A study of Homo sapiens with 4 samples.

Results

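The 51 genes described here belong to the ATF4 amino acid response and to the cytosolic aminoacyl-tRNA synthetases. They were chosen by name from general knowledge of the pathway, with earlier results of these data already known. All 51 were found among the 29655 gene names of the count tables. Of these, 18 stood under a symbol that has since been replaced, such as AARS for AARS1. They fall into 9 transcription factors and feedback regulators, 6 growth, redox and secreted effectors, 5 enzymes of serine, glycine and 1-carbon metabolism, 6 enzymes of asparagine, proline, alanine and cysteine metabolism, 7 amino acid transporters and 18 cytosolic synthetases.

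The RNA-seq libraries came from UMSCC74B, an established line from a head and neck squamous cell carcinoma (HNSCC). The control group comprised 2 libraries from cells given control shRNA, with the genotype listed as WT. The other group comprised 2 libraries labelled PRMT5 KD, from cells given shRNA against PRMT5, the arginine methyltransferase that the study placed upstream of the RNA-binding protein FXR1. All cells were collected after 72 h. The labels describe plasmid transfection and the study's methods describe lentiviral particles, and neither says whether the libraries of a group came from separate cultures, so the tests measure the spread between these libraries, which may be technical. The labels list non-essential amino acids in the growth medium, whereas the methods list none for this line. The question addressed was how the transcripts of the amino acid response differed between the PRMT5 KD label and control.

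ATF4 is the transcription factor of the integrated stress response. Kinases that sense amino acid shortage, misfolded protein, heme loss or double-stranded RNA phosphorylate the initiation factor eIF2, general translation falls, and the ATF4 messenger is translated more. ATF4 then binds composite C/EBP-ATF response elements near genes for amino acid synthesis, uptake and tRNA charging, and induces regulators such as DDIT3, TRIB3 and PPP1R15A that feed back on the response. Because ATF4 is largely controlled at translation, its transcript level is not a measure of its protein.

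The targeted transcript and cell type markers were examined first. PRMT5 measured 94.3 and 84.2 CPM in control and 132 and 149 CPM under the PRMT5 KD label, where CPM is the count scaled to a common library size over the tested genes, with TMM factors. Its log2 fold change was 0.66 (SE 0.12, FDR = 0.00543, edgeR quasi-likelihood test), so the transcript went against the label. The labels say that PRMT5 protein was also assessed by immunoblot, and the study reports that an immunoblot showed the silencing by this shRNA. Counts per gene do not measure protein. Every direction given here is that of the libraries labelled PRMT5 KD over control. Squamous markers were nearly absent: KRT5, KRT6A, KRT14 and CDH1 reached at most 0.46 CPM in any library, EPCAM reached at most 1.00 CPM, and only 3 of 10 listed markers were expressed enough to test, of which TP63 was lower (-1.35), PKP1 higher (0.79) and DSP not called. The summed level of all 10 was 41.7 and 38.6 CPM in control and 45.7 and 69.0 CPM under the label. All 5 tested fibroblast markers of 6 were lower under the label, with a summed level of 530.3 and 586.6 CPM in control and 85.5 and 93.2 CPM under the label. The leukocyte list summed to 129 and 153 CPM against 154 and 172 CPM, with PTPRC at most 0.10 CPM and CD3E at 0. Most of that sum was CD68, called higher at 94.6 and 113 CPM against 152 and 169.5 CPM, while CD14 was lower at 34.6 and 40.0 CPM against 1.07 and 1.86 CPM. The endothelial list to 10.9 and 14.7 CPM against 2.10 and 1.15 CPM. Total counts lay between 52185289 and 65964558 per library, and ribosomal RNA took 15.3% and 14.2% of them in control and 26.2% and 18.02% under the label. The part of these differences in the results that follow was not tested, and in bulk RNA fewer cells of a type and less RNA per cell cannot be told apart.

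The core of the C/EBP-ATF response element was looked for in the promoters of the members, since it is the site through which ATF4 is known to act. The motif searched was TGATGNAA, or TTNCATCA on the other strand, within RefSeq promoter windows of GRCh38.p14 that run from 250 bases before to 50 bases after each annotated start. A window was given for 40 of the members. Of these, 15 (37.5%) held the motif, against 1217 of 27305 genes with a window (4.46%). The members were chosen by name for this pathway, so the difference is not an independent result. The 27305 genes were not limited to those expressed here. The sites below are shown because they belong to the best known ATF4 targets (ASNS, CHAC1, CEBPG), to the 2 members with a site that passed the test (SLC3A2, AARS), to a further transporter (SLC1A5) and to the 2 members with the longer form TGATGNAAT (GARS, TARS). Each is written 5′ to 3′ on the strand of its gene, and the capitals mark the 8 bases of the motif.
ASNS, chr7:97872458-97872487, minus strand: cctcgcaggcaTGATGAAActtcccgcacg
CHAC1, chr15:40953251-40953280, plus strand: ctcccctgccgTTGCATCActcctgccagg
CEBPG, chr19:33374060-33374089, plus strand: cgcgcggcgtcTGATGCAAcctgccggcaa
SLC3A2, chr11:62881725-62881748, plus strand: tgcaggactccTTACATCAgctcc
AARS, chr16:70289675-70289704, minus strand: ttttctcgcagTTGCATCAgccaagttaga
SLC1A5, chr19:46784893-46784922, minus strand: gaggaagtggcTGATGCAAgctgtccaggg
GARS, chr7:30594834-30594863, plus strand: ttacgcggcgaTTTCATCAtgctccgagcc
TARS, chr5:33440956-33440985, plus strand: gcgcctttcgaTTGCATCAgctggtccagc

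The first base of the motif lay 68 bases before the start for ASNS, 209 for CHAC1, 42 for CEBPG, 187 for AARS, 97 for SLC1A5 and 33 for GARS, and after the start for SLC3A2 and TARS. Sites were also found for ATF3, SLC7A1, SLC1A4, CARS, IARS, MARS and NARS. Among the synthetases 7 of 14 with a window held the motif, and the other members had it in 8 of 26. A match of letters in such a window is a description and does not show binding.

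Of the 51 members, 50 were expressed enough to test. VLDLR, a lipoprotein receptor, did not reach 0.5 RPKM in both libraries of either group and measured 6.67 and 5.02 CPM in control and 6.85 and 4.98 CPM under the label. A gene was called when its FDR was under 0.05 and its absolute log2 fold change at least 0.5, the thresholds of the study's methods. By that rule 16 members were called, 6 higher and 10 lower, which is 32.0% of those tested. The share of all 11885 genes tested was 45.6% (21.2% higher, 24.4% lower). Those shares over all genes stand beside the counts of every list below, and the differences were not tested. The median log2 fold change of the members was -0.02, beside -0.01 for all genes. A further 3 members passed the FDR without the fold change (LARS, DARS and QARS) and 31 passed neither. The control and KD-labelled libraries did not overlap for 26 of the 50 members (52%) and for 9569 of all genes (80.5%). Changes among the members ran in both directions, and the difference between their share and that of all genes was not tested.

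The counts of called members moved with single libraries. Without control replicate 1 there were 5 lower, without control replicate 2 there were 3 higher and 6 lower, and without PRMT5 KD replicate 2 there were 10 higher. Without PRMT5 KD replicate 1 there were 15 lower. Scaling by total counts alone shifted the median of all genes to 0.17 and turned the split over all genes from 2521 higher and 2898 lower into 3505 higher and 2198 lower. Under it 8 members were higher and 7 lower, and ATF3, CEBPG, STC2, SLC7A5, SLC1A5 and GARS, all within 0.11 of zero, changed sign.

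**Figure D1:**
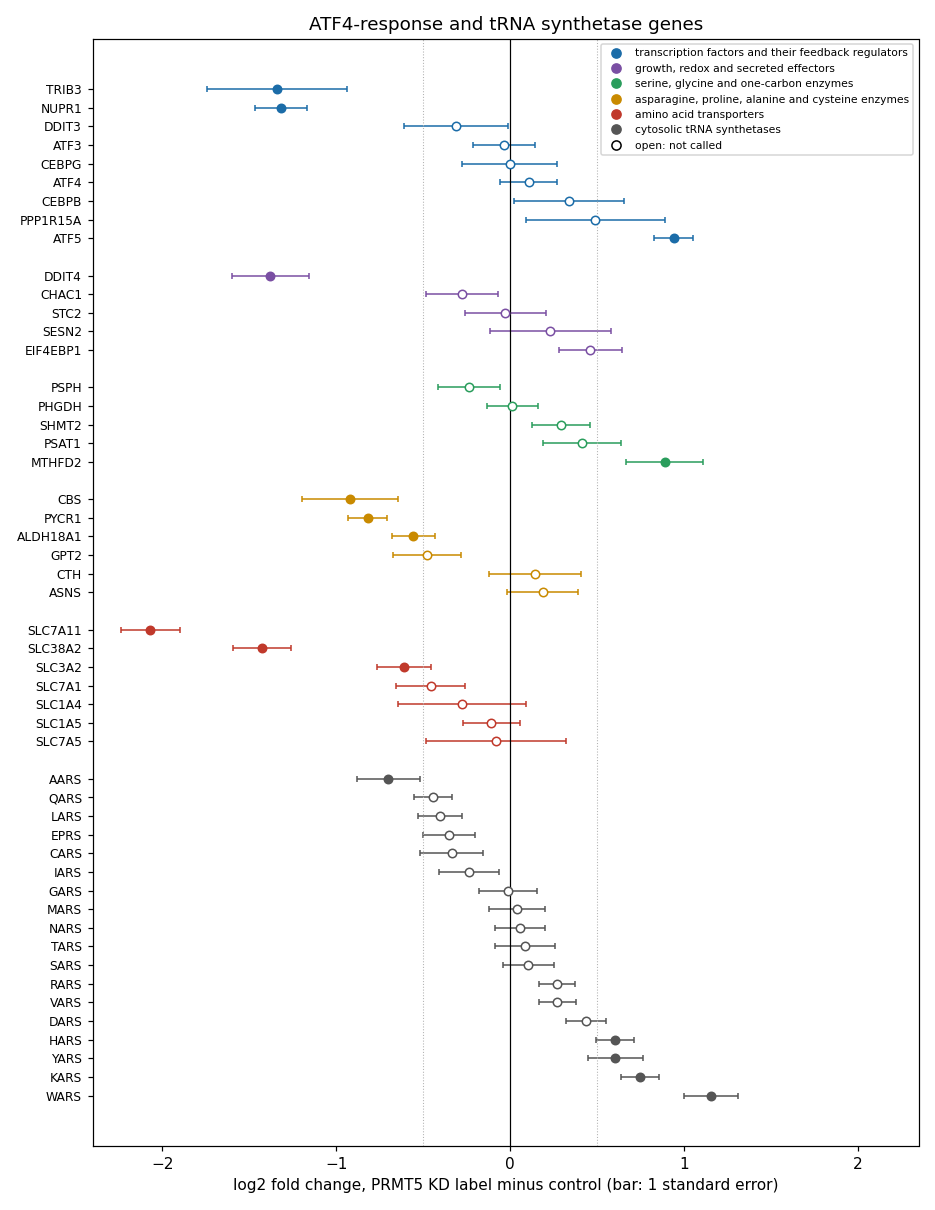
Log2 fold change of the 50 tested members (PRMT5 KD label minus control, edgeR) by role, 1 point per gene, with bars of 1 standard error and filled points for called genes; dotted lines mark 0.5 in each direction. SLC7A11 lies lowest at -2.07 and WARS highest at 1.16, and the transporters all lie left of 0.

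Among the transcription factors and their feedback regulators, ATF4 and its best known partners did not pass the test, while 3 of the 9 did. ATF4 (chr22:39519695-39522683) measured 350.0 and 308 CPM in control and 399.8 and 310.2 CPM under the label, with a log2 fold change of 0.11 (95% CI -0.29 to 0.50, FDR = 0.60). The groups overlapped, and an increase or decrease larger than that interval was not found at this depth. ATF3, a stress-induced factor of the same family (chr1:212565334-212620777), measured 61.6 and 51.7 CPM in control and 63.8 and 46.9 CPM under the label, a log2 fold change of -0.03 (95% CI -0.46 to 0.40). DDIT3, which encodes the pro-apoptotic factor CHOP (chr12:57516588-57521737), measured 69.9 and 55.9 CPM against 65.0 and 36.4 CPM. Its log2 fold change of -0.31 (95% CI -1.07 to 0.45, FDR = 0.419) became -0.75 and was called without PRMT5 KD replicate 1 (FDR = 0.00403). DDIT3 shares 355 exon bases with MARS on the opposite strand, and whether the counting used strand was not given in the sources used here.

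ATF5, a close relative of ATF4 that is likewise controlled by translation (chr19:49928702-49933935), was higher. It measured 38.9 and 37.2 CPM in control and 69.8 and 76.5 CPM under the label, a log2 fold change of 0.94 (SE 0.11, FDR = 0.00110). The groups lay well apart, and the value stayed between 0.88 and 1.05 when any library was left out. Its exons share 565 bases, 19.5% of their length, with NUP62 on the opposite strand, whose own log2 fold change was 1.06.

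NUPR1 and TRIB3, both induced in the response, were lower. NUPR1, a small chromatin-associated stress protein (chr16:28532708-28539008), measured 26.7 and 24.5 CPM in control and 11.2 and 9.41 CPM under the label, a log2 fold change of -1.32 (SE 0.15, FDR = 0.000943). TRIB3, a pseudokinase that restrains ATF4 and AKT (chr20:362835-397559), measured 409.8 and 292 CPM in control and 188 and 89.3 CPM under the label. Its log2 fold change was -1.34 (SE 0.40, FDR = 0.0435). The groups did not overlap, but the libraries of each group differed among themselves, and the call was lost without either control replicate (FDR = 0.140 and 0.0705). CEBPB is a partner in the composite element, CEBPG dimerises with ATF4, and PPP1R15A is the phosphatase subunit that reverses eIF2 phosphorylation. Their log2 fold changes were 0.34, -0.00 and 0.49, and their values overlapped between the groups. With a library left out, CEBPB ranged from -0.17 to 0.75, CEBPG from -0.34 to 0.30 and PPP1R15A from -0.10 to 0.93.

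Of the effectors, DDIT4 alone was called. DDIT4, an inhibitor of the growth kinase complex mTORC1 (chr10:72273919-72276036), measured 240.2 and 292 CPM in control and 123 and 81.6 CPM under the label, a log2 fold change of -1.38 (SE 0.22, FDR = 0.00404). Both KD-labelled libraries lay far below both controls. SESN2, which signals leucine shortage to mTORC1, EIF4EBP1, the repressor of cap-dependent translation, CHAC1, a glutathione-degrading enzyme, and STC2, a secreted glycoprotein, had log2 fold changes of 0.23, 0.46, -0.27 and -0.03 and did not pass. EIF4EBP1 was called higher with scaling by total counts, with edgeR's expression filter, without a filter, with all gene names and without PRMT5 KD replicate 2, where SESN2 was higher too, and went to -0.05 with the correction for exon length and GC content. CHAC1 was called lower without PRMT5 KD replicate 1. STC2 was among the most abundant members, at 226 RPKM (CPM per kilobase of exon) in control and 222 RPKM under the label.

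**Figure D2:**
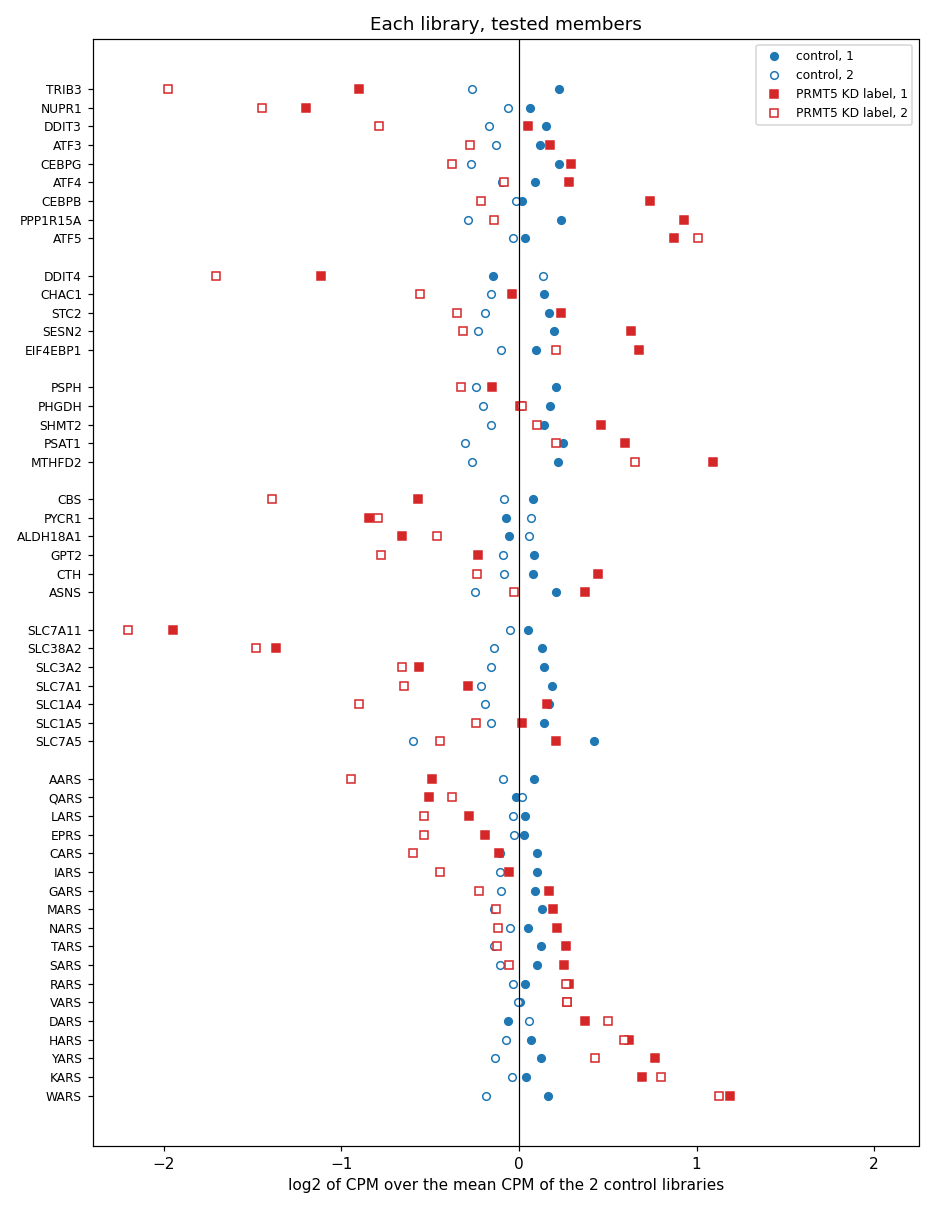
CPM of each tested member in each of the 4 libraries as log2 over the mean of the 2 control libraries, by role, with circles for control, squares for the PRMT5 KD label, and filled and open symbols for replicates 1 and 2. SLC7A11, SLC38A2 and WARS show both squares far from both circles, whereas for ATF4, ASNS, GARS, MARS and TARS squares and circles interleave.

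The serine, glycine and 1-carbon enzymes held 1 called member of 5, and it was higher. MTHFD2, the mitochondrial methylenetetrahydrofolate dehydrogenase (chr2:74186172-74217565), measured 204 and 146 CPM in control and 372 and 275 CPM under the label, a log2 fold change of 0.89 (SE 0.22, FDR = 0.0173). The groups did not overlap, and the call was lost without control replicate 2 (0.67, FDR = 0.111). Of the remaining enzymes of the pathway, PHGDH, PSAT1 and PSPH make serine from a glycolytic intermediate and SHMT2 splits it into glycine and a 1-carbon unit. They had log2 fold changes of 0.01, 0.41, -0.24 and 0.29 and did not pass, so that the list had a median of 0.29.

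The enzymes of asparagine, proline, alanine and cysteine metabolism held 3 called members of 6, all lower, and the list had a median of -0.52. ASNS, the asparagine synthetase that is often used as a readout of ATF4 (chr7:97851677-97872542), was not among them. It measured 41.6 and 30.3 CPM in control and 46.6 and 35.3 CPM under the label, a log2 fold change of 0.19 (95% CI -0.32 to 0.69, FDR = 0.468), and the groups overlapped.

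Both proline synthesis enzymes on the list were lower. ALDH18A1, the first enzyme of the route from glutamate (chr10:95605941-95656711), measured 222 and 239.6 CPM in control and 146 and 168 CPM under the label, a log2 fold change of -0.56 (SE 0.12, FDR = 0.0105). PYCR1, the reductase of the last step (chr17:81932384-81942412), measured 71.8 and 79.0 CPM in control and 42.1 and 43.5 CPM under the label, a log2 fold change of -0.82 (SE 0.11, FDR = 0.00172). The groups were separate for both genes, but ALDH18A1 lay close to the fold threshold and lost its call when either control library or PRMT5 KD replicate 1 was left out.

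CBS, which joins homocysteine and serine on the way to cysteine (chr21:43053191-43076943), measured 31.3 and 27.8 CPM in control and 19.96 and 11.3 CPM under the label. Its log2 fold change was -0.92 (SE 0.28, FDR = 0.0348), lost without either control library. The tables also list CBSL, a near-identical copy, at 437.603 and 461.957 estimated counts in control and 343.752 and 197.177 under the label, so how the reads were divided between the copies is uncertain. CTH, the next enzyme of the route and the least abundant tested member at 2.21 RPKM in control, had a log2 fold change of 0.14. GPT2, the mitochondrial alanine aminotransferase, had one of -0.48 with an FDR of 0.0826.

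All 7 amino acid transporters had log2 fold changes below 0, and 3 of them were called. SLC7A11, the light chain of the cystine-glutamate exchanger (chr4:138164097-138242349), measured 5035 and 4686 CPM in control and 1259.9 and 1058 CPM under the label. That is 4.19-fold lower, a log2 fold change of -2.07 (SE 0.17, FDR = 0.000414), and it was the largest change of any member. SLC38A2, a sodium-coupled importer of small neutral amino acids (chr12:46358188-46372773), measured 3620.2 and 2996 CPM in control and 1281 and 1183 CPM under the label, a log2 fold change of -1.43 (SE 0.17, FDR = 0.00103). These were the most abundant members in control at 504 and 508 RPKM, and they fell to 120.2 and 189 RPKM. Leaving out any library kept SLC7A11 between -2.16 and -1.94 and SLC38A2 between -1.56 and -1.28.

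SLC3A2, the heavy chain that carries SLC7A11 and SLC7A5 to the membrane (chr11:62856004-62888880), measured 914 and 742 CPM in control and 561 and 524 CPM under the label. Its log2 fold change was -0.61 (SE 0.16, FDR = 0.0173), and the call was lost without control replicate 1 and with scaling by total counts. SLC7A5, the light chain of the leucine exchanger, measured 659 and 326 CPM in control and 570.0 and 362 CPM under the label. For this gene the control libraries lay outside the KD-labelled ones on both sides, and the log2 fold change was -0.08 (SE 0.40). The cationic transporter SLC7A1 and the neutral transporters SLC1A4 and SLC1A5 had log2 fold changes of -0.46, -0.28 and -0.11 and did not pass, although SLC7A1 and SLC1A4 were called lower without PRMT5 KD replicate 1.

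Of 20 other amino acid transporters on a further list, 16 were tested, 10 were lower and 0 higher at the same thresholds. That is 62.5% lower, beside 24.4% of all genes tested. The median was -1.11, and -0.81 with the length and GC correction, where 10 were lower as well. The 4 largest changes among them were those of SLC1A3 (-2.32), SLC7A8 (-2.20), SLC7A7 (-1.78) and SLC38A1 (-1.33). The count was 8 without either control replicate.

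**Figure D3:**
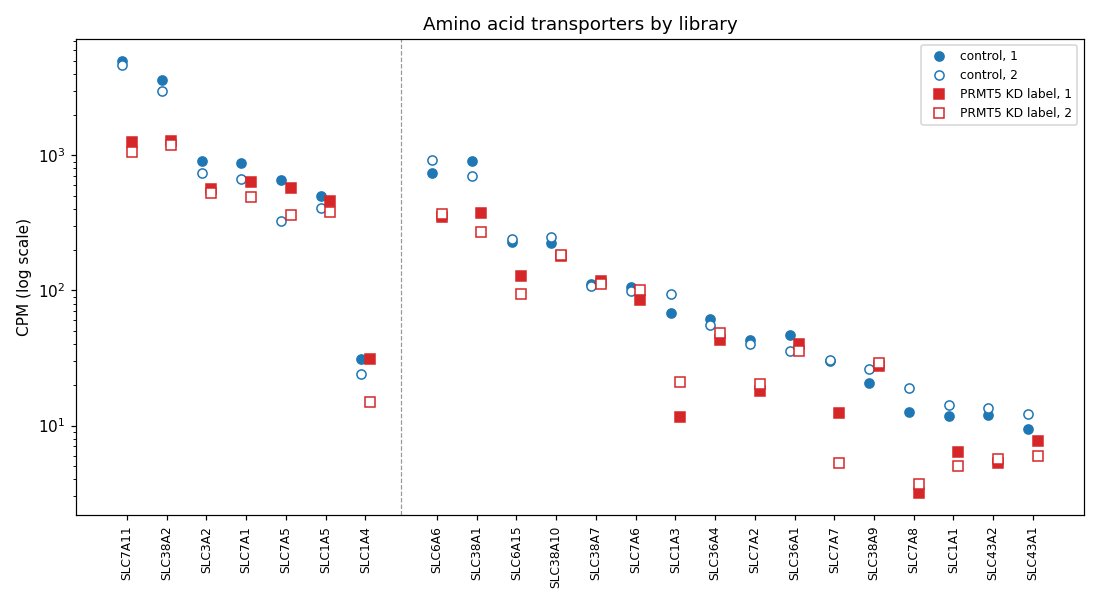
CPM on a log axis of the 7 transporters among the members (left of the dashed line) and 16 other tested amino acid transporters, with circles for the 2 control and squares for the 2 KD-labelled libraries. SLC7A11 drops from about 5035 and 4686 CPM to 1259.9 and 1058 CPM, whereas the symbols of SLC7A5 and SLC1A5 overlap.

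The 18 cytosolic synthetases, which charge tRNAs with their amino acids, were split in direction, with 4 higher, 1 lower and a median log2 fold change of 0.07. Among all genes tested 21.2% were higher and 24.4% lower. WARS, which charges tryptophan (chr14:100333790-100376805), changed most. It measured 244 and 192 CPM in control and 495 and 476 CPM under the label, 2.23-fold higher, a log2 fold change of 1.16 (SE 0.16, FDR = 0.00157). It was called without any of the 4 libraries, at 1.00 to 1.34.

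KARS, the lysine enzyme (chr16:75627474-75648643), measured 100.8 and 95.3 CPM in control and 158 and 170.5 CPM under the label, a log2 fold change of 0.75 (SE 0.11, FDR = 0.00222). HARS, for histidine (chr5:140673035-140691537), measured 55.6 and 50.5 CPM in control and 81.5 and 79.8 CPM under the label, a log2 fold change of 0.61 (SE 0.11, FDR = 0.00488). YARS, for tyrosine (chr1:32775237-32818031), measured 141 and 118 CPM in control and 220.5 and 175 CPM under the label, a log2 fold change of 0.61 (SE 0.16, FDR = 0.0186). The groups were separate for each of these enzymes, and YARS lost its call without either control replicate or without PRMT5 KD replicate 1, and HARS without control replicate 2.

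AARS, for alanine (chr16:70251983-70289707), was the synthetase that was lower. It measured 568 and 505 CPM in control and 382 and 279 CPM under the label, a log2 fold change of -0.70 (SE 0.18, FDR = 0.0185). The call was lost without either control replicate (FDR = 0.123 and 0.0798), without PRMT5 KD replicate 2 (-0.48) and after the correction for exon length and GC content (-0.45, FDR = 0.0732). QARS and LARS, for glutamine and leucine, passed the FDR at -0.44 and -0.40, and DARS, for aspartate, at 0.44. With the length and GC correction LARS went to -0.05 (FDR = 0.724, edgeR) and DARS to 0.29 (FDR = 0.0672). QARS kept -0.46 (FDR = 0.0123), and EPRS and VARS passed the FDR only there, at -0.45 and 0.43. The values that follow are without that correction. The other 10 synthetases lay between -0.35 and 0.27.

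Synthetases usually counted as ATF4 targets and the rest of the list were set side by side. Of the 12 usual targets 2 were higher (WARS and YARS) and 1 lower (AARS), with a median of 0.01. Of the other 6, KARS and HARS were higher and 0 lower, with a median of 0.35. The 8 members of the multisynthetase complex, a particle that holds several synthetases together, had 1 higher and a median of -0.10. The 10 outside it had 3 higher, 1 lower and a median of 0.10. With the length and GC correction the medians were 0.12 for the complex and 0.17 outside it, and the lower call, AARS, was lost. These are descriptions of lists of unequal size, and the differences between them were not tested.

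**Figure D4:**
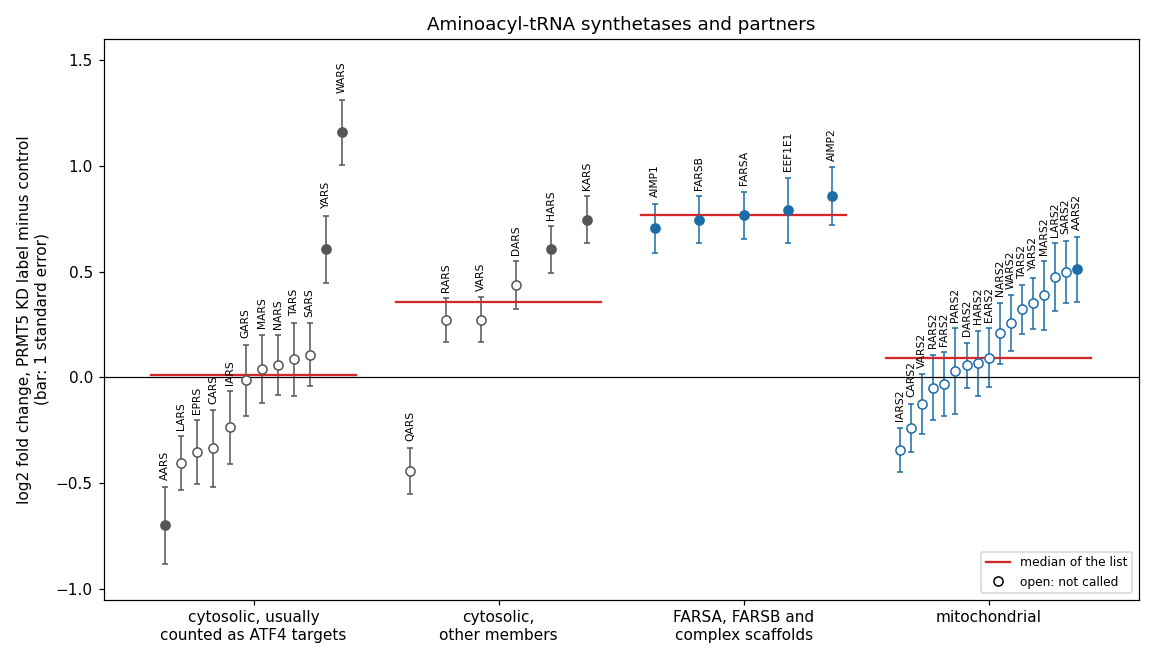
Log2 fold change (PRMT5 KD label minus control, bars of 1 standard error) of the 12 cytosolic synthetases usually counted as ATF4 targets, the other 6 members, FARSA, FARSB and the complex scaffolds, and 17 mitochondrial synthetases; red lines mark list medians and filled points called genes. The medians are 0.01, 0.35, 0.77 and 0.09.

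The partners of the synthetases moved in 1 direction. FARSA and FARSB, the subunits of the phenylalanine enzyme, and AIMP1, AIMP2 and EEF1E1, the scaffolds of the complex, were all higher (5 of 5), with log2 fold changes between 0.71 and 0.86. Among all genes tested 21.2% were called higher. AIMP2 stood at 0.86, EEF1E1 at 0.79, FARSA at 0.77 and FARSB at 0.74. EEF1E1 was not called after the length and GC correction or without either control replicate. Of the 17 mitochondrial synthetases, which have genes of their own, 1 was called, AARS2 at 0.51, and 4 more passed the FDR alone, at a list median of 0.09. AARS2 lost its call when either control library or PRMT5 KD replicate 2 was left out and with the replicate block (FDR = 0.0554), which left 0 called, whereas 4 were called with the length and GC correction and 5 with scaling by total counts.

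Genes on either side of ATF4 were taken from lists as well. Over all genes tested, 21.2% were called higher and 24.4% lower. A list of 14 genes covered eIF2 kinases, the kinase activator GCN1, eIF2, its exchange factor eIF2B and the phosphatase subunit PPP1R15B. EIF2S1, the phosphorylated subunit, was higher (0.90), as were the exchange factor subunits EIF2B3 (0.87) and EIF2B1 (0.66). In all 2 were lower, the kinase genes EIF2AK3 (-1.08) and EIF2AK4 (-0.51, FDR = 0.0115, edgeR). EIF2AK4 was not called with the length and GC correction (-0.26, FDR = 0.119). With a library left out it lay between -0.61 and -0.41. EIF2B1 lost its call without either control replicate. Among 11 further ATF4 targets 5 were lower and 0 higher, at a median of -1.09. SLC6A9, a glycine transporter, stood at -1.98, CCPG1, a receptor for autophagy of the endoplasmic reticulum, at -1.75, ULBP1 at -1.56 and GDF15, a stress cytokine, at -1.30. That count was 3 without control replicate 1, 2 without control replicate 2 and 8 without PRMT5 KD replicate 1. Among 12 genes of the ATF6 and XBP1 branches of the unfolded protein response, 8 were lower and 1 higher. ERN1 stood at -1.60, HERPUD1 at -0.96, CRELD2 at -0.79 and SDF2L1 at 0.77, but only 2 were lower with scaling by total counts or without control replicate 2, and 3 without control replicate 1. The call of SDF2L1 was lost without either control replicate and with the length and GC correction (0.43, FDR = 0.101), and that of ERN1 without either control replicate, with total counts, with either other filter and with the correction.

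Libraries of the same label differed among themselves in the members, and mostly in the same sense. Replicate 1 was above replicate 2 in both groups for 42 of the 50 members (84.0%) and for 2623 of all genes (22.1%). The numbers only name the libraries and do not pair them. The median log2 CPM ratio of replicate 1 to replicate 2 was 0.21 in control and 0.36 under the label for the members, against -0.01 and -0.00 for all genes. It held for 7 of 7 transporters and for 12 of 12 synthetases usually counted as ATF4 targets, but for 3 of the other 6 synthetases and 2 of the 17 mitochondrial ones. PPP1R15A, at 189 and 131 CPM in control and 305 and 145 CPM under the label, and TRIB3 showed it strongly, while ALDH18A1, PYCR1, DARS and QARS had replicate 1 below replicate 2 in both groups. The share of ribosomal RNA was also higher in replicate 1 of each label, and its part in this difference was not tested.

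**Figure D5:**
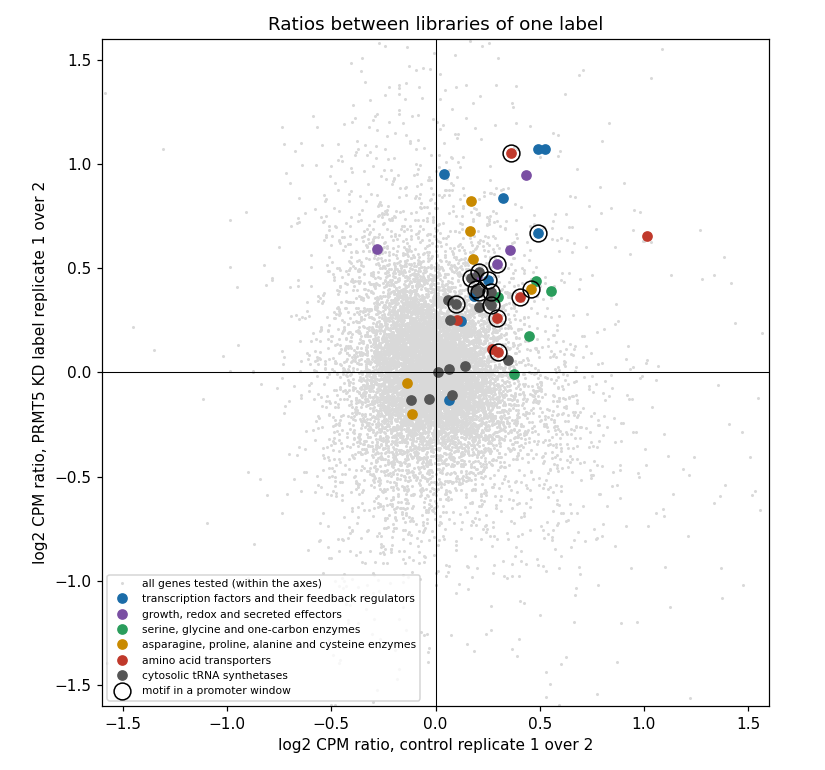
Log2 CPM ratio of replicate 1 over replicate 2 among the KD-labelled libraries (vertical axis) against the same ratio in control (horizontal axis), with grey dots for all genes tested, colours for the roles and rings for members with the promoter motif. The members gather in the upper right, 42 of 50, where 22.1% of all genes lie.

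The promoter motif was set beside both readouts. All 15 members with the motif had replicate 1 above replicate 2 in both groups, and so did 18 of the 24 tested members with a window and no match. Between the labels, the 15 members with a match held 0 called higher and 2 called lower, SLC3A2 and AARS, and 13 were not called. The 24 tested members with a window and no match held 5 called higher and 5 called lower. Among all genes tested 21.2% were called higher and 24.4% lower, and these differences were not tested. The log2 fold changes of the members with a match ran from -0.70 to 0.19 with a median of -0.11, and those without had a median of 0.11. Windows for NUPR1, PYCR1, SLC7A11 and YARS, which were called, were not analysed here.

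Exons shared with neighbouring genes were counted. Exons of 12 members share bases with another protein-coding gene (24.0% of those tested, against 31.5% of all genes), among them all 6 called higher and PYCR1 and AARS among those called lower. The shared part exceeded 10% of the exon length in 4 members, DDIT3, ATF5, PYCR1 and MTHFD2. The partner of PYCR1, MYADML2, was at 0 CPM in all 4 libraries, and that of MTHFD2, SLC4A5, lay between 1.57 and 2.96 CPM, while NUP62, beside ATF5, measured 75.2 and 73.4 CPM in control and 140.1 and 169 CPM under the label. For WARS, YARS and HARS the opposite-strand partners WDR25, S100PBP and WDR55 had log2 fold changes of -0.06, -0.23 and -0.16, and for KARS the partner TERF2IP had one of 0.68. Estimated counts carried decimals in 22 members. In some the decimals were slight, as for VLDLR at 264.001 in control replicate 1, and in others larger, as for ASNS at 1646.31 there. Decimals alone therefore do not show how many members had reads divided between genes.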

How the data were processed

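Total RNA from UMSCC74B cells was sequenced after a directional library kit on a Singular Genomics G4 instrument. The authors deposited estimated counts per gene, not normalized, in 1 table per library. The submitters' processing notes name FastQC, Trim Galore, STAR, Salmon and DESeq2 on GRCh38, the study's methods name STAR and FeatureCounts, and which program made the estimates is not given in the sources used here. Each table held 29744 entries. Of these, 28 had been turned into dates (0.150% to 0.161% of the counts) and were left out. Rows of the same name were summed, and names were matched to GENCODE release 44 by symbol (21672), RefSeq synonym (1476), RefSeq identifier (1116) or by hand (23), while 309 were ambiguous and 5059 unmatched.

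Counts were rounded. The test covered 11885 protein-coding genes that reached 0.5 RPKM throughout a group (over union exon length, so long rare exons lower an RPKM). It was run with edgeR 4.0.16 (R 4.3.3, TMM, robust quasi-likelihood, Benjamini-Hochberg over all genes). The control group had 2 libraries and the PRMT5 KD group 2. Intervals of fold changes are 95% intervals of that fit, and counting intervals would cover counting error only. The study used DESeq2, and its Results set the log2 fold change threshold at 1 where its methods set 0.5. It is among the alternatives, with other scalings and filters, a replicate block, splines on length and GC (df 4) and the omission of each library in turn. The median log2 fold change of the genes tested fell with transcript length, from 0.26 in the shortest decile to -0.36 in the longest. The cause of that trend was not tested. Replicate numbers were not taken as pairs: deviations of same-numbered libraries correlated at -0.10.

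Values by library are given for ATF4, ATF3, DDIT3, ASNS, SLC7A11 and up to 6 called members per role, and up to 4 called genes are named per further list. Some genes that this rule names are not reported here. VLDLR, CBSL, SLC7A5, PPP1R15A, EIF2AK4 and the overlapping neighbours are not named by this rule. They were added with their values in view, as was the check of overlapping exons. The members and lists were chosen with earlier results of these data known. The procedure was tested on simulated data. Sequences are from RefSeq (GRCh38.p14), with member symbols updated where needed.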

Additional observations from a re-analysis of the deposited data

How the results depend on the processing

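DESeq2, other factors, filters, all gene names, the replicate block and the length and GC correction gave 5101 to 6167 genes called, 6 to 8 members higher and 7 to 10 lower. With a fold threshold of 1 there were 2561 genes, 1 member higher and 5 lower. With the 9-base motif 2 members matched. Leaving out 1 library gave 3126 to 5705 genes, 3 to 10 members higher, 5 to 15 lower, and a median of members from -0.26 to 0.19. PRMT5 kept its direction at 0.57 to 0.78 but was not called without control replicate 2 (0.58, FDR = 0.0676, edgeR). With the replicate block 5195 genes were called and 6 members were higher and 10 lower, and TRIB3 had an FDR of 0.00637. With the numbers crossed between groups, a setting chosen after seeing the data, these counts were 5482, 6 and 9. ATF3 turned from -0.03 to 0.14 with total counts, 0.030 with edgeR's expression filter, 0.021 without a filter and 0.0091 with all gene names. With a library left out, ATF3 ranged from -0.23 to 0.18, ATF4 from -0.048 to 0.29, DDIT3 from -0.75 to 0.055 and ASNS from -0.023 to 0.43. TRIB3 lost its call at total counts, both other filters, the length and GC correction and the crossed block. CBS lost it without a filter and with the length and GC correction. ALDH18A1 and SLC3A2 lost it at total counts, and ALDH18A1 also with edgeR's expression filter. DDIT3 was called only with the block and the length and GC correction together, or without PRMT5 KD replicate 1. The causes were not tested. With 2 libraries per group, no test for an outlying library applies, and intervals near 0.4 on the log2 scale or wider, as for ATF4, leave smaller changes undetectable.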

Other observations

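Other enzymes of the same metabolism, taken from further lists, are given here beside the members. Over all genes tested, 21.2% were called higher and 24.4% lower. Of 11 folate and glycine enzymes, 9 were tested, 4 were higher and 2 lower. TYMS, the thymidylate synthase, stood at a log2 fold change of 2.72, and MTHFD2L, the relative of MTHFD2, at 1.92. AMT, of the glycine cleavage system, stood at -1.74. Of 17 other amino acid enzymes, 15 were tested, 2 were higher and 4 lower. ARG2, the mitochondrial arginase, stood at -1.12 and ALDH4A1 at -0.76.

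Of 16 genes listed for amino acid sensing by mTORC1, which include MTOR, RPTOR, EIF4EBP2 and EIF4EBP3, 15 were tested, 1 was higher and 3 lower. SESN3, a relative of SESN2, stood at -3.09, CASTOR1, the arginine sensor, at -2.14, RRAGB at -0.71 and SESN1 at 0.53. MTOR and RPTOR, at 0.00 and 0.03, were not called. The calls of RRAGB and SESN1 were lost when either control library was left out.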
